A study of Mus musculus with 18 samples.

Results

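Chronic hypoxia was examined in whole lung of a mouse line labelled β-arrestin 2 -/-, by setting 3 hypoxic libraries against 3 normoxic ones across all measured genes. These 6 of the 18 libraries of the series were chosen by their titles alone, and no measured value entered the choice. All mice were C57BL/6 males that entered at 8 to 12 weeks of age and were 12 to 16 weeks old at the end. The hypoxic group was kept for 4 weeks at a pressure equal to an altitude of 18000 feet (labelled oxygen pressure about 70 mmHg), and the normoxic group stayed at normal altitude (about 150 mmHg). Both groups carried the same genotype label. Wild type and β-arrestin 1 -/- mice of the same strain, sex and age went through both exposures as well, again with 3 libraries for each combination, and serve here for tests of a difference between responses, for the check of the genotype label and, in the shared fit, for the estimate of spread behind each test. No label says whether a library stands for 1 mouse or a pool, and the spread behind each p-value is that among libraries, which may be technical.

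β-Arrestins end the signalling of G protein-coupled receptors by uncoupling them from their G proteins, and they act as scaffolds for other signals. Air at low pressure narrows the small pulmonary arteries of rodents, and over weeks it raises pulmonary artery pressure and thickens vessel walls. Endothelial cells, pericytes, smooth muscle cells and adventitial fibroblasts of those vessels all take part in this remodelling, and oxygen-sensing prolyl hydroxylases and hypoxia-inducible factors govern part of the transcription behind it.

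The genotype label was checked against the level of Arrb2, on chromosome 11 from 70432580 to 70440828 (mm10, the build the submitters name). Arrb2 had 30.7, 37.8 and 34.6 CPM (fragments scaled to library size) in the hypoxic libraries, against 46.5, 38.9 and 36.6 CPM in the normoxic ones, with a log2 difference of -0.24 ± 0.20 (SE, adjusted p = 0.39). Wild type lungs had 33.5, 40.2 and 43.3 CPM in hypoxia and 31.5, 30.2 and 35.1 CPM in normoxia, so the hypoxic groups overlapped and every normoxic library under the label lay above every wild type one. A loss of Arrb2 RNA under the label was thus not seen. Reads over single exons were not examined, and the libraries are therefore called labelled β-arrestin 2 -/- throughout. Arrb1, the other β-arrestin, had 370.4, 364 and 359 CPM in hypoxia, against 262, 287 and 319 CPM in normoxia. All hypoxic values of Arrb1 lay above the normoxic ones. The difference of 0.33 ± 0.12 did not pass the test (adjusted p = 0.0547), although it did with DESeq2 (adjusted p = 0.0225). Wild type lungs had 405, 399 and 302 CPM of Arrb1 in hypoxia and 474, 464 and 478 CPM in normoxia. The hypoxic groups overlapped, and every normoxic library under the label lay below every wild type one. β-Arrestin 1 -/- lungs had 83.7, 88.8 and 90.7 CPM in hypoxia and 87.5, 118 and 107 CPM in normoxia.

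The 6 libraries held 18250814 to 25983090 estimated fragments each, and normoxic library 0 was the smallest. Lung identity was plain in the deposited FPKM values, which are scaled for gene length: the alveolar type 1 gene Ager stood at 2218 to 2550.0 FPKM in hypoxia and 2004 to 3267 FPKM in normoxia, the alveolar type 2 gene Sftpb at 1229 to 1636 and 1404 to 1743, and the endothelial gene Pecam1 at 369 to 389.9 and 249 to 287. Heart muscle genes were present too. Their summed level over 32 genes spanned 2521 to 4531 CPM in hypoxia and 759 to 9177 CPM in normoxia, with the normoxic library 0 at the top, and edgeR called 0 of the 32 in either direction, while 1 had an unadjusted p under 0.05 and DESeq2 called 0. On a principal component analysis of the 6 libraries the first component (53.4% of the variance) split hypoxia from normoxia, and the second (25.5%) set normoxic library 0 apart from normoxic libraries 1 and 2. Counts of called genes are given below with and without this library and hypoxic library 0. In bulk tissue, fewer cells of a type and less RNA per cell cannot be told apart.

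Hypoxia changed a large share of the transcriptome. Of 15388 genes tested, 1709 were higher and 1661 lower in hypoxic than in normoxic lung at an adjusted p under 0.05, which is 11.1% and 10.8% of the genes, or 21.9% together. Among them, 286 were at least 2-fold higher and 463 at least 2-fold lower. The median log2 difference over all tested genes was -0.04. The count depended on which libraries were used: 1710 genes were called without hypoxic library 0 (11% of those then tested), 1868 without normoxic library 0 (12.1%), 2222 without normoxic library 1, 2219 without hypoxic library 2, 2416 without hypoxic library 1 and 3107 without normoxic library 2. A core of 1334 genes, 772 higher and 562 lower, kept its call and direction in all 6 of these fits, and the genes given with values below belong to it unless a sentence says otherwise. In the authors' deposited table for the same comparison, 2624 of the tested genes had a q under 0.05, and 1952 of the genes called here were among them, none with the opposite sign.

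The strongest changes were steep and tight across libraries. Spon2, a secreted matrix protein of the F-spondin family (chromosome 5, 33213518 to 33218238), had 1.86, 4.2 and 4.62 CPM in hypoxia, against 95.6, 96.2 and 101 CPM in normoxia. All hypoxic libraries were far below all normoxic ones, a 27.3-fold lower level (-4.77 ± 0.40 on the log2 scale, adjusted p = 1.27e-05). Olfm2, a secreted olfactomedin domain protein, had 0.52, 1.45 and 2.61 CPM, against 15.2, 14.5 and 16.8 CPM (-3.34 ± 0.33, adjusted p = 4.80e-05). Plvap (chromosome 8, 71497753 to 71511769) encodes the protein of the diaphragms that span endothelial fenestrae and caveolae, and it had 102, 157 and 159 CPM in hypoxia, against 923, 976 and 1248 CPM in normoxia, with groups well apart (-2.91 ± 0.25, adjusted p = 1.45e-05). Sfrp2, a secreted modulator of Wnt signalling, had 4.42, 8.12 and 8.58 CPM, against 39.8, 34.7 and 36.7 CPM (-2.40 ± 0.31, adjusted p = 0.000213).

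At the other end stood Ntrk2, which encodes TrkB, a neurotrophin receptor (chromosome 13, 58806596 to 59129967), with 387, 128 and 107 CPM in hypoxia, against 13.7, 11.3 and 12.7 CPM in normoxia. Hypoxic library 0 was far above the other two hypoxic libraries, while the 3 normoxic libraries lay close together (4.04 ± 0.57, adjusted p = 0.000381). The anion transporter family member Slc26a10 had 15, 15.5 and 11.8 CPM in hypoxia, against 1.84, 1.31 and 1.37 CPM in normoxia, a 9.39-fold higher level (adjusted p = 1.27e-05). Reln, the large secreted glycoprotein reelin made in lung by lymphatic endothelium, had 43.3, 41.6 and 39.5 CPM, against 6.45, 8.63 and 7.99 CPM (2.43 ± 0.20, adjusted p = 1.27e-05). The activin-binding protein follistatin, Fst, had 25.4, 19.8 and 26.2 CPM, against 2.73, 4.05 and 4.76 CPM (2.62 ± 0.38, adjusted p = 0.000438). Zbtb16, a zinc finger repressor that glucocorticoids induce, had 219, 172 and 185 CPM, against 29.8, 18.8 and 42 CPM, and the normoxic libraries differed more among themselves than the hypoxic ones (2.66 ± 0.66, adjusted p = 0.011). Of the 15 genes with the largest rise and the 15 with the largest fall, 28 kept their call without each library in turn. The exceptions were the clock output gene Dbp, taken up below, and the orphan nuclear receptor gene Nr4a3 (-2.53 ± 0.75), called without normoxic library 1 and not called without any other of the 6 libraries, with an adjusted p of 0.0419 to 0.0941 over the 6 fits.

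**Figure D1:**
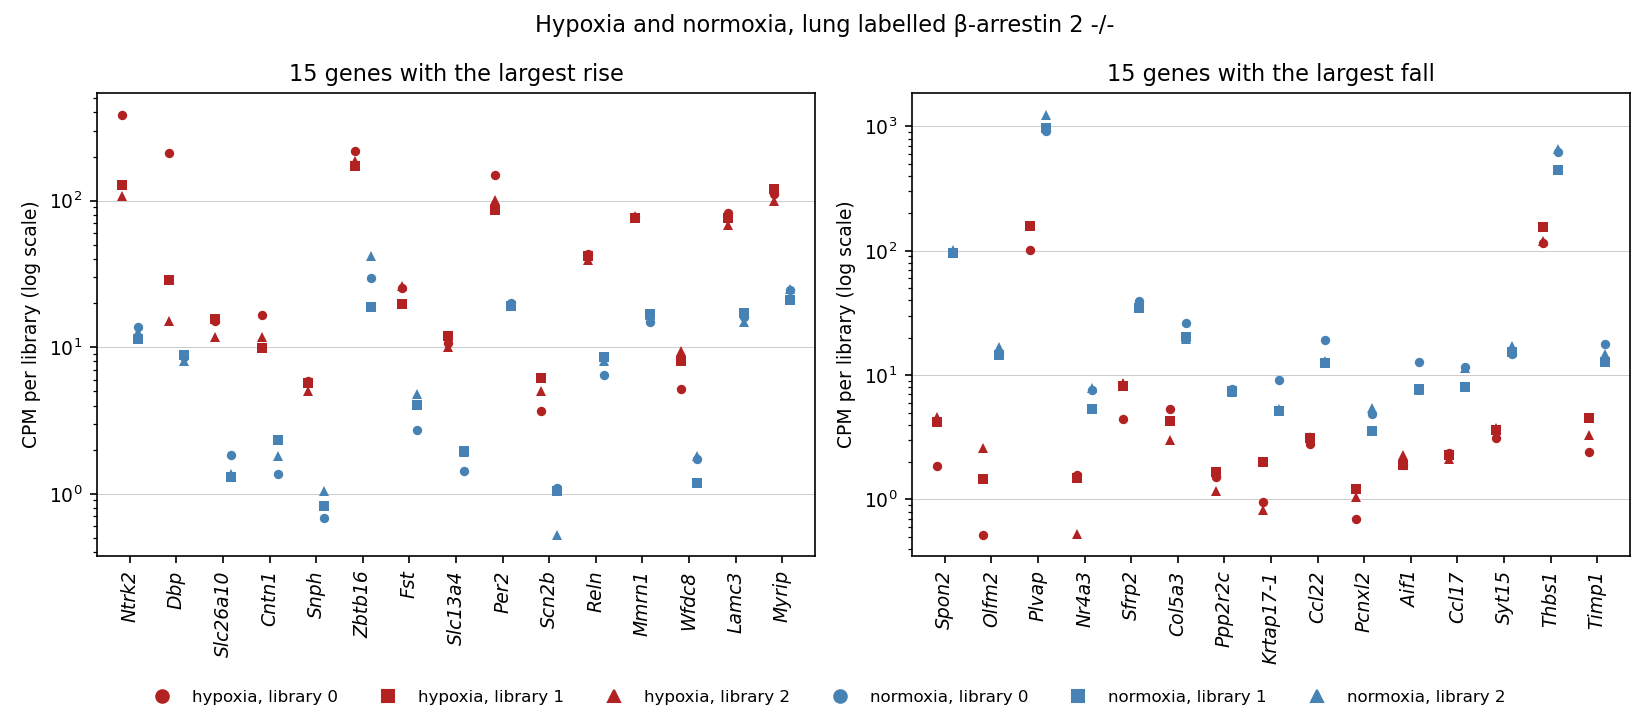
CPM (log axis) in each of the 3 hypoxic (red) and 3 normoxic (blue) libraries of the lung labelled β-arrestin 2 -/-, for the 15 genes with the largest rise (left panel) and the 15 with the largest fall (right panel) among called genes whose groups did not overlap. Spon2 sits at 1.86 to 4.62 CPM in hypoxia and 95.6 to 101 CPM in normoxia, and Dbp shows 1 hypoxic library, at 213 CPM, far from the other two.

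Among endothelial genes more rose than fell, with a few sharp exceptions. Among 22 genes common to all endothelium, 9 rose and 0 fell (40.9%, against 21.9% of all tested genes), with a median log2 difference of 0.32. However, 1 rose without normoxic library 0, 2 without hypoxic library 0 and 4 without normoxic library 1. The member that kept its call in every fit was Pecam1, an adhesion molecule of endothelial junctions, with 1301, 1285 and 1355 CPM in hypoxia and 879, 890.0 and 1005 CPM in normoxia (0.51 ± 0.11, adjusted p = 0.00457). Cdh5, which encodes VE-cadherin, had 1439, 1388 and 1398 CPM, against 871, 1123 and 1325 CPM, and did not pass (0.35 ± 0.19, adjusted p = 0.186). Among 22 capillary genes, 6 rose and 3 fell (40.9%). Besides Plvap the falls included Esm1, a proteoglycan of sprouting endothelium, with 8.15, 11 and 13.6 CPM, against 40.7, 48.4 and 50.4 CPM (-2.09 ± 0.26, adjusted p = 0.000159), and Apln, which encodes the peptide apelin (-0.66 ± 0.20), whose call was lost without hypoxic libraries 0, 1 and 2 and normoxic libraries 1 and 2 in turn (adjusted p up to 0.113). The rises were Sema3c, a secreted semaphorin guidance cue (1468, 1173 and 1225 CPM, against 452, 464 and 522 CPM in normoxia, a 2.69-fold rise), the periaxin gene Prx (1.79-fold), the phosphatase gene Ptprb (1.76-fold), the kinase gene Sgk1 (1.77-fold), the transcription factor gene Tbx2 (1.73-fold) and the water channel gene Aqp1 (1.41-fold).

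Single genes of arterial, venous and lymphatic endothelium changed in either direction. Of 24 arterial and venous genes, 4 rose and 3 fell (29.2%, against 21.9% of all tested genes). The arterial factors Sox17 (0.70 ± 0.11) and Hey2 (1.29 ± 0.21) and the venous genes Nr2f2 (0.71 ± 0.15) and Ephb4 (0.59 ± 0.13) were higher in hypoxia. Vcam1, the adhesion molecule that binds leukocyte integrins, had 58.2, 56.4 and 55.2 CPM in hypoxia, against 119, 140.3 and 149.5 CPM in normoxia (-1.27 ± 0.13, adjusted p = 6.31e-05). The arterial gap junction gene Gja5, which encodes connexin 40, had 47.6, 44 and 43.6 CPM, against 90.1, 101 and 93.5 CPM (-1.08 ± 0.15, adjusted p = 0.000343). Among 10 lymphatic genes measured, 4 rose and 1 fell, against the 21.9% called of all genes. Mmrn1, a multimerin of lymphatic endothelium, had 76.9, 76.2 and 78.3 CPM in hypoxia, against 14.9, 16.8 and 16.5 CPM in normoxia, with both groups narrow (2.26 ± 0.20, adjusted p = 1.65e-05). Lyve1, a hyaluronan receptor of lymphatic endothelium and of perivascular macrophages, had 208, 253 and 247 CPM, against 321, 426 and 497 CPM (-0.81 ± 0.16, adjusted p = 0.00356). Prox1, the master regulator of lymphatic identity, had 3.86, 4.04 and 3.35 CPM, against 2.25, 1.35 and 0.282 CPM, and was not called (adjusted p = 0.0535). It was called without normoxic library 0, which held the highest normoxic level (log2 difference 2.22). Calls were also made with DESeq2 (adjusted p = 0.0233), with the replicate number as a block and in each limma fit on log2 FPKM. The same held with a score of cardiac, club cell and adipocyte genes as a covariate.

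Genes that set vessel tone moved in both directions. Of 33 such ligands, enzymes and receptors, 8 rose and 5 fell, where all tested genes gave 11.1% and 10.8%. The counts were 5 and 4 without hypoxic library 0, 6 and 3 without hypoxic library 2 or normoxic library 1, and 8 and 3 without normoxic library 2. Edn1 encodes endothelin 1, a potent vasoconstrictor peptide, and had 125, 133 and 148 CPM in hypoxia, against 25.2, 39.4 and 43.6 CPM in normoxia. The groups did not overlap, and the level was 3.75-fold higher (adjusted p = 0.000381). The endothelin receptor genes Ednra and Ednrb differed by -0.01 ± 0.10 and 0.10 ± 0.21 and were not called. Ace, the angiotensin-converting enzyme, had 2701, 2488 and 2195 CPM, against 929, 1022 and 1277 CPM (2.29-fold higher, adjusted p = 0.00108), and the angiotensin receptor gene Agtr1a was 1.96-fold higher. Ramp3, an accessory protein of the adrenomedullin receptor, rose 3.08-fold, and the thromboxane receptor gene Tbxa2r fell (-0.96 ± 0.22). In the nitric oxide and cyclic GMP list, 6 of 19 genes rose and 4 fell. Without hypoxic library 0 these were 5 and 0, without normoxic library 0 they were 4 and 2, and without hypoxic library 2 or normoxic library 2 they were 6 and 1. Nos3, the endothelial nitric oxide synthase, had 75.8, 62.3 and 54.6 CPM, against 41.1, 26.9 and 31.4 CPM in normoxia (0.96 ± 0.20, adjusted p = 0.00406), and the phosphodiesterase genes Pde2a (0.80 ± 0.17) and Pde1a (0.78 ± 0.17) rose with it.

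Of 40 genes for hypoxia-inducible factors, their sensors and their textbook targets, 9 rose and 3 fell (30%, against 21.9% of all tested genes). The median log2 difference of these genes was 0.15. Epas1, which encodes the factor HIF-2α abundant in lung endothelium, had 4577, 4882 and 5201 CPM in hypoxia, against 3296, 3269 and 3402 CPM in normoxia (0.56 ± 0.14, adjusted p = 0.0102). Egln1, the main oxygen-sensing prolyl hydroxylase, had 176, 178 and 181 CPM, against 138, 126 and 132 CPM, a small but tight rise (0.43 ± 0.07, adjusted p = 0.00115). The MYC antagonist gene Mxi1 (0.90 ± 0.10), the collagen hydroxylase gene P4ha2 (0.68 ± 0.16), the hexokinase gene Hk1 (0.44 ± 0.10) and the histone demethylase gene Kdm3a (0.41 ± 0.10) rose as well. In contrast, the targets Car9, a carbonic anhydrase (-1.44 ± 0.29), and Stc1, a stanniocalcin (-1.51 ± 0.25), fell. Vegfa had 703, 669 and 642 CPM, against 610.3, 860.4 and 899 CPM, with overlapping groups (-0.24 ± 0.12, adjusted p = 0.174; -0.38 and called as lower without normoxic library 0), and the glycolytic genes Aldoa (0.08), Ldha (-0.22) and Pgk1 (0.01) and the glucose transporter gene Slc2a1 (0.38, called with DESeq2) were not called.

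Some signalling ligands of the vessel wall rose and others fell. Among 29 genes of the VEGF, angiopoietin, PDGF and FGF families, 9 rose and 2 fell (37.9%, against 21.9% of all tested genes). Without hypoxic library 0 the counts were 6 and 0, without normoxic library 1 they were 6 and 1, and without normoxic library 0 they were 5 and 3. Vegfc, the growth factor of lymphatic endothelium, had 69.6, 54.1 and 51.9 CPM in hypoxia, against 21.8, 21.5 and 26.6 CPM in normoxia (2.51-fold higher, adjusted p = 0.000239), and Figf, which encodes its relative VEGF-D, was 1.73-fold higher. Angpt1, the ligand of the endothelial receptor Tie2, rose 1.62-fold, the placental growth factor gene Pgf 1.79-fold and Fgf7 1.74-fold. In the Notch list 5 of 18 genes rose and 1 fell (33.3%). The ligand gene Jag2 had 142, 94.4 and 95.1 CPM, against 35.1, 30.9 and 35.7 CPM (3.26-fold, adjusted p = 0.000159), the endothelial receptor gene Notch4 rose 1.65-fold and the mural cell receptor gene Notch3 1.84-fold. Of 46 genes of the BMP and TGF-β pathway, 13 rose and 7 fell (43.5%), and 7 and 6 without hypoxic library 0. Beside Fst, the rises included the receptor-regulated effector Smad9 (1.20 ± 0.20), the ligand Bmp4 (0.83 ± 0.14), the inhibitor Smad7 (0.84 ± 0.18) and Tgfb1 (0.47 ± 0.10). The ligand genes Gdf10 (-1.40 ± 0.20), Tgfb2 (-1.05 ± 0.18) and Tgfb3 (-0.58 ± 0.11) fell. Of 42 Wnt genes, 6 rose and 4 fell, a share of 23.8% that lies near the 21.9% of all tested genes. The falls numbered 1 without hypoxic library 0 and 2 without hypoxic library 1 or 2 or normoxic library 0 or 2. The rises were the nuclear effectors Tcf7 (1.32 ± 0.15) and Lef1 (0.63 ± 0.14), the feedback genes Axin2 (0.76 ± 0.19) and Nkd1 (0.49 ± 0.10) and the receptors Lrp5 (0.75 ± 0.15) and Fzd6 (0.64 ± 0.16).

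Among 21 pericyte genes 7 rose and 0 fell (33.3%, against 21.9% of all tested genes), and 4 rose without hypoxic library 0. Lamc3, a laminin chain of pericyte basement membrane, had 82.5, 76.5 and 68.7 CPM in hypoxia, against 16, 17.2 and 14.8 CPM in normoxia, a 4.74-fold rise (adjusted p = 1.52e-05). The defining receptor gene Pdgfrb did not differ enough to be called (0.07 ± 0.13, adjusted p = 0.726). Of 26 smooth muscle contractile genes 0 rose and 6 fell, a share of 23.1% that lies near the 21.9% of all tested genes. Without normoxic library 0 the counts were 2 higher and 4 lower, and the median log2 difference moved from -0.27 to -0.03. Acta2, smooth muscle α-actin, had 302, 251 and 285 CPM, against 979.7, 489 and 444 CPM, and Cnn1, calponin, had 81.7, 61.3 and 60.9 CPM, against 316, 136 and 115 CPM. In both genes normoxic library 0 was the highest by far and the remaining normoxic libraries still lay above all hypoxic ones (-1.19 ± 0.24, adjusted p = 0.00361, and -1.47 ± 0.31, adjusted p = 0.00448). Without that library Acta2 differed by -0.73 and Cnn1 by -0.88, and both stayed called. The smooth muscle myosin gene Myh11 had 421, 338 and 290.3 CPM, against 496, 271 and 211 CPM, with overlapping groups and a difference of 0.10 ± 0.25. Cardiac genes peaked in the same normoxic library, and their part in these falls was not tested by itself. With a tissue score of cardiac, club cell and adipocyte genes as a covariate, the 4 contractile genes that had kept their call without each library stayed called in hypoxia. Of the 26 genes, 6 had a lower response than in wild type lung, and 0 with that covariate. The count was 1 without wild type normoxic library 0 or 1 or wild type hypoxic library 2. It was also 1 without hypoxic library 1 or 2 of the labelled line. Without wild type normoxic library 2 or normoxic library 0 of the labelled line it was 2. It was 9 without normoxic library 2 of the labelled line and 10 with DESeq2. In wild type lung the score was 0.41 to 0.75 in hypoxic and -2.12 to -0.97 in normoxic libraries, so score and exposure are confounded there. What other tissue contributed to these values was not tested.

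Many matrix genes fell. Of 30 fibrillar and other collagen genes measured, 0 rose and 12 fell (40%, against 21.9% of all tested genes), with a median log2 difference of -0.52. Without hypoxic library 2 the falls numbered 6, the lowest count of the 6 fits. That fit called 963 genes lower over all tested genes, against 1661 with all libraries. Col3a1, a main fibrillar collagen of vessel walls, had 351, 392 and 304 CPM in hypoxia, against 1115, 1229.5 and 1418 CPM in normoxia (3.59-fold lower, adjusted p = 0.000315). All 3 chains of collagen V fell: Col5a3 by 2.38, Col5a1 by 1.16 and Col5a2 by 0.82 on the log2 scale. Col6a3 (-0.97 ± 0.19) and the anchoring fibril collagen Col7a1 (-1.39 ± 0.27) also fell. Both chains of collagen I were lower, Col1a1 at -0.93 ± 0.25 and Col1a2 at -0.66 ± 0.17, but neither was called without hypoxic library 2 (adjusted p = 0.0689 and 0.0616). The basement membrane chains Col4a1 (0.20 ± 0.21) and Col4a2 (0.36 ± 0.20) were not called.

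Elastic fibre genes, crosslinking enzymes and matricellular proteins counted 9 higher and 14 lower of 42 (54.8%, against 21.9% of all tested genes). The counts were 5 and 12 without hypoxic library 1 and 4 and 12 without normoxic library 1. Eln, tropoelastin, had 251, 414 and 309.5 CPM in hypoxia, against 1216, 864 and 1094 CPM in normoxia (-1.70 ± 0.25, adjusted p = 0.00042). Its crosslinking enzyme Loxl1 had 68.5, 86.2 and 73.6 CPM, against 177, 194 and 244 CPM, in groups that lay far apart (-1.43 ± 0.16, adjusted p = 8.21e-05). The matricellular genes Tnc, tenascin C (-1.89 ± 0.24), and Thbs1, thrombospondin 1 (-2.14 ± 0.37), fell with them. Mfap4, a microfibril-associated protein, went the other way, with 1411, 1454 and 1037 CPM, against 448, 631 and 695 CPM (1.14 ± 0.19, adjusted p = 0.00114). Inhibitors of matrix metalloproteinases split: Timp1 had 2.43, 4.55 and 3.27 CPM, against 17.7, 12.7 and 14.7 CPM, and Timp3 had 2781, 2182 and 2198 CPM, against 927, 1021 and 1208 CPM. Timp1 thus fell by 2.13 and Timp3 rose by 1.18 on the log2 scale. The protease genes Mmp3 (-1.49 ± 0.19), Adamts4 (-1.95 ± 0.46) and Adamts17 (-1.99 ± 0.28) fell, while Mmp28 (1.63 ± 0.37) and Adamts7 (1.12 ± 0.21) rose. Of 28 fibroblast genes 7 rose and 6 fell, and 3 and 2 without hypoxic library 0, 5 and 3 without hypoxic library 1, 6 and 0 without hypoxic library 2, 4 and 2 without normoxic library 0 and 4 and 3 without normoxic library 1. The transcription factor gene Tcf21 had 204, 217 and 198 CPM, against 93.4, 122 and 124 CPM (0.87 ± 0.15, adjusted p = 0.00154), and the dipeptidase gene Dpep1 rose 2.35-fold.

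**Figure D2:**
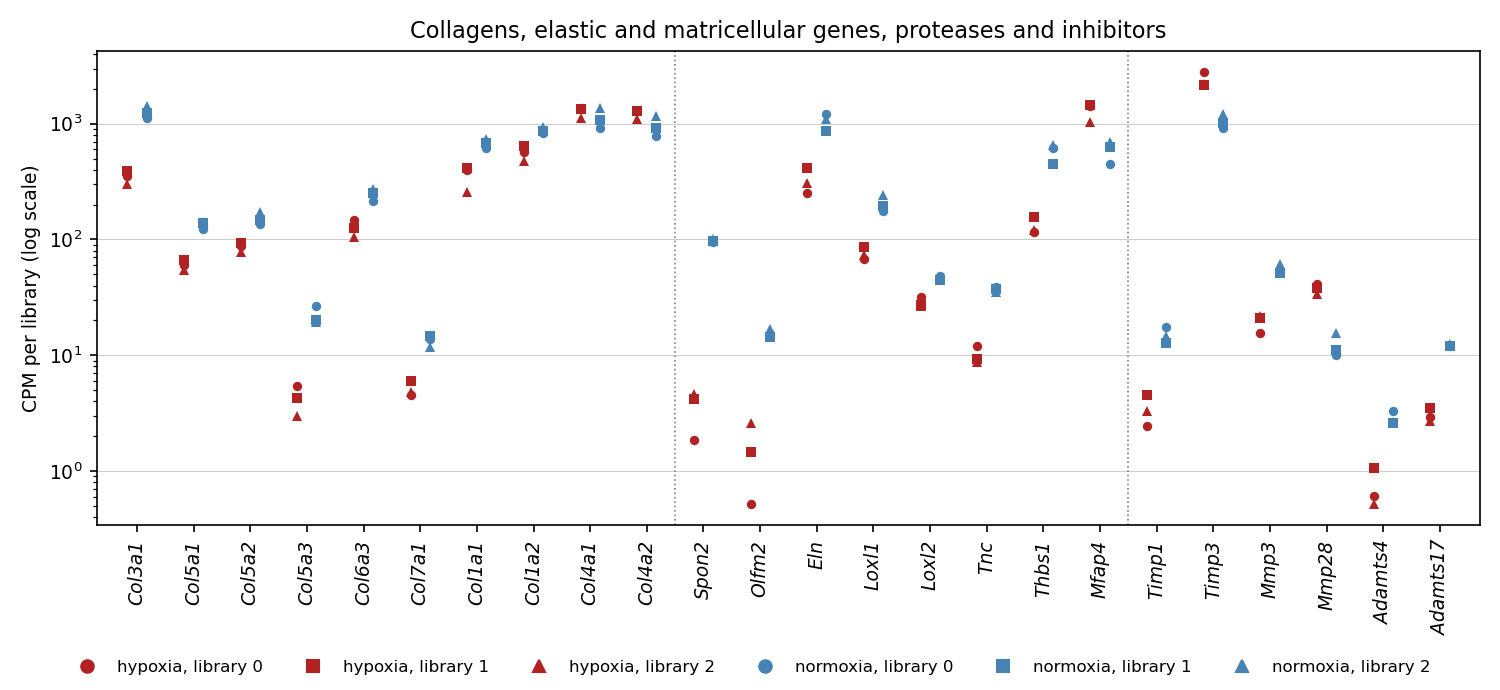
CPM (log axis) per library for collagens, elastic, crosslinking and matricellular genes, and proteases and inhibitors, split by dotted lines from left to right, with the 3 hypoxic libraries in red and the 3 normoxic in blue. Spon2 and Olfm2 lie far lower in hypoxia, Col4a1 and Col4a2 overlap, and Mfap4, Timp3 and Mmp28 are higher in hypoxia.

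Many circadian clock genes rose. In the clock, the activators CLOCK, NPAS2 and BMAL1 (gene Arntl) bind E-box sequences and drive their repressors PER and CRY, while the output factors DBP, TEF and HLF act through D-box sequences. Of 20 core clock genes 9 rose and 1 fell, and of 20 clock output genes 7 rose and 3 fell, against 11.1% of all tested genes higher and 10.8% lower. Without hypoxic library 0 the counts were 7 and 0 for the core and 6 and 0 for the output genes. No label gives the hour at which the lungs were taken. The promoters of 4 genes that rose are shown because each holds one of these motifs; they surround the gene start in RefSeq (GRCm38.p6, each read along the strand of its gene), with the E-box CACGTG or the D-box TTANGTAA in capitals.
Per3 (chr4:151044616-151044915, minus strand): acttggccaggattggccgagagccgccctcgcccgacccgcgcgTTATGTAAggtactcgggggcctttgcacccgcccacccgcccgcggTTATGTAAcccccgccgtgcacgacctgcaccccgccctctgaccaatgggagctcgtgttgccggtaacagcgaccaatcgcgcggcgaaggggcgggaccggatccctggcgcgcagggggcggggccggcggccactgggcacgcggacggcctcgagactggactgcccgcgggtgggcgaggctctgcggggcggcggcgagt
Cry1 (chr10:85185005-85185304, minus strand): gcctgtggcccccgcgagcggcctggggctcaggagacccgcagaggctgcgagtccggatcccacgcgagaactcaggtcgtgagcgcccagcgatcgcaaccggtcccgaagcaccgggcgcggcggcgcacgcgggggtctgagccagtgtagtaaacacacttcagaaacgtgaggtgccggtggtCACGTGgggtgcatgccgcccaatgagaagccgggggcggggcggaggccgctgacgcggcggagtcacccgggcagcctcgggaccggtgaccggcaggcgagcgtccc
Tef (chr15:81811164-81811463, plus strand): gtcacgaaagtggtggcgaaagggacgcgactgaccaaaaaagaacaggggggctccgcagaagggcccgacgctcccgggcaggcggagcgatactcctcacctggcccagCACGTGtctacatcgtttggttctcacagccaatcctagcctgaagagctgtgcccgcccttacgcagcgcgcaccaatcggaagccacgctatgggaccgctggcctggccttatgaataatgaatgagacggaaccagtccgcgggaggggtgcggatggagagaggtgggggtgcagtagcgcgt
Bhlhe41 (chr6:145865371-145865670, minus strand): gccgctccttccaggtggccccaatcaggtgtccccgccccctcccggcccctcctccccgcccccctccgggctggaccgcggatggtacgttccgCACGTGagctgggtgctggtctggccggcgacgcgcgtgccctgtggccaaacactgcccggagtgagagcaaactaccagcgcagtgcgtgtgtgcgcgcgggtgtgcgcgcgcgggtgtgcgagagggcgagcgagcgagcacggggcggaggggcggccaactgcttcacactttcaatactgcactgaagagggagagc
The E-box, searched on both strands, was found in the window of 3 of 15 core clock genes with an entry in the table (20%) and 7 of 17 output genes (41.2%), in 8.09% of all 27025 gene symbols and in 11.1% of the 11255 tested genes with an entry. The D-box was found in 3 of 15 core genes (20%) and 1 of 17 output genes (5.88%), in 2.72% of all symbols and in 1.95% of the tested genes. No window shown holds both motifs, and a match is a description of the letters in this window.

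Per2, a repressor of the clock, had 150.4, 86.9 and 101 CPM in hypoxia, against 20.1, 19 and 19.3 CPM in normoxia. The normoxic libraries agreed closely, and every hypoxic library was far above them (2.54 ± 0.45, adjusted p = 0.00171). Per3, whose promoter above holds D-boxes, had 98.2, 58.5 and 47 CPM, against 13.3, 19.1 and 14 CPM (2.13 ± 0.39, adjusted p = 0.00205). Cry1, with an E-box, had 69.4, 63.2 and 70.4 CPM, against 27.6, 21.4 and 22.2 CPM (1.51 ± 0.31, adjusted p = 0.0039). The repressor gene Bhlhe41, also with an E-box, had 71.5, 25.3 and 23.9 CPM, against 13.7, 14.3 and 12.7 CPM, and its rise (1.57 ± 0.33, adjusted p = 0.00456) was largest in hypoxic library 0. The nuclear receptor gene Rora (1.45 ± 0.35), whose product activates Arntl, and Timeless (0.53 ± 0.11) rose too. Tef had 610.4, 373 and 342 CPM, against 133, 135 and 134 CPM (1.72 ± 0.21, adjusted p = 0.000174), and Hlf had 165, 72.4 and 62 CPM, against 24.6, 21.4 and 25.8 CPM (2.06 ± 0.34, adjusted p = 0.000968).

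Hypoxic library 0 stood apart from the other two hypoxic libraries in several clock genes. Dbp had 213, 28.6 and 15.2 CPM in hypoxia, against 8.55, 8.85 and 8.11 CPM in normoxia, and its call (3.33 ± 1.04, adjusted p = 0.0315) was lost without hypoxic library 0, without each normoxic library, with the tissue score as a covariate and on log2 FPKM, with an adjusted p of 0.023 to 0.322 over the 6 fits. Arntl had 3.38, 21.8 and 26.1 CPM, against 39.2, 42.5 and 40.8 CPM, all hypoxic values below all normoxic ones, and was not called (-1.26 ± 0.59, adjusted p = 0.132). The repressor gene Nr1d1 had 251, 42.8 and 31.4 CPM, against 109, 95.8 and 115 CPM, with hypoxic library 0 above and hypoxic libraries 1 and 2 below every normoxic one. Npas2 had 1.78, 9.06 and 14.2 CPM, against 31.1, 24.7 and 22.2 CPM (-1.64 ± 0.55), a fall whose call was kept without hypoxic library 2 and lost without each of the other 5 libraries and in the fit with the replicate number as a block (adjusted p up to 0.122 over the 6 fits). Clock itself differed by 0.04 ± 0.21 and was not called.

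**Figure D3:**
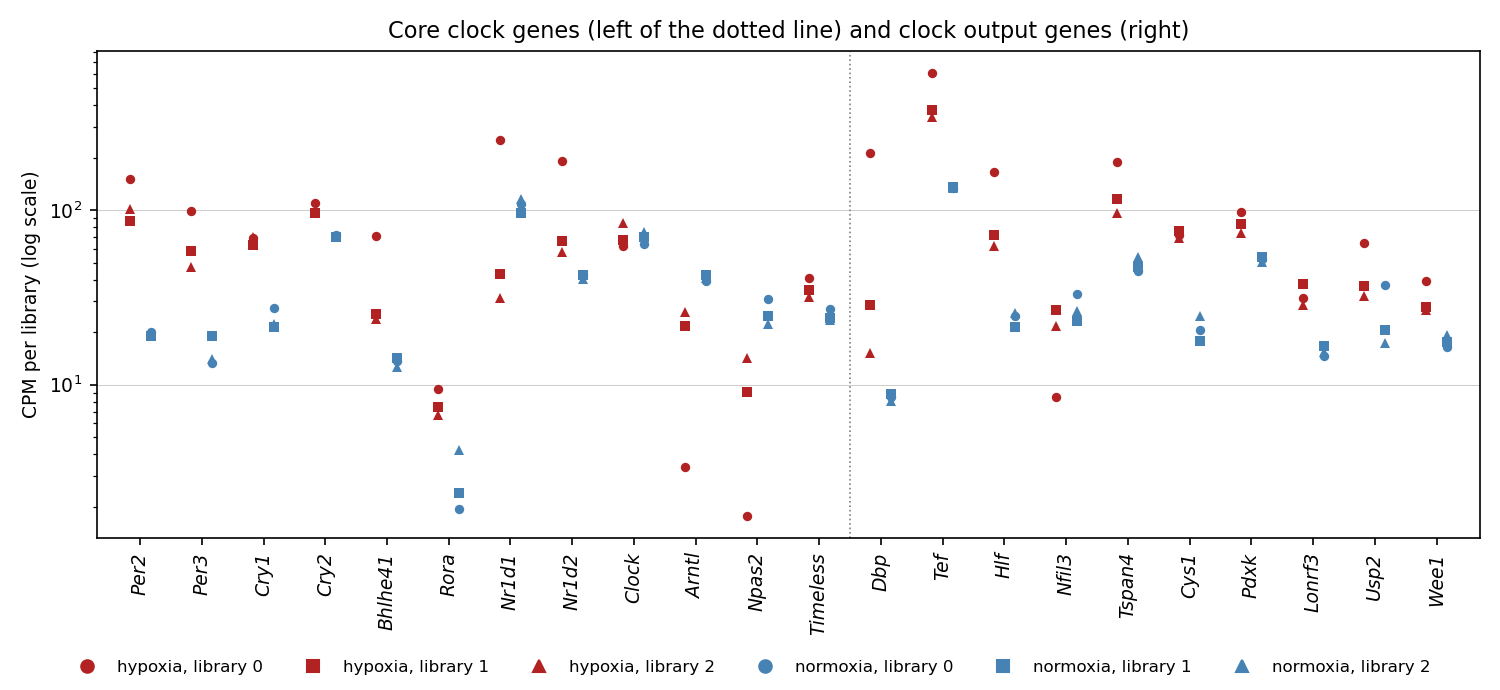
CPM (log axis) per library for 12 core clock genes and 10 clock output genes, with the 3 hypoxic libraries in red and the 3 normoxic in blue. Hypoxic library 0 (red circles) lies apart from the other two hypoxic libraries in Nr1d1, Arntl, Npas2 and Dbp, while Per2, Per3, Cry1, Tef and Hlf are higher in all 3 hypoxic libraries.

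A further group of glucocorticoid-responsive and fasting-responsive genes, 35 in all, counted 8 higher and 3 lower (31.4%, against 21.9% of all tested genes). The counts were 7 and 0 without normoxic library 0 and 8 and 0 without hypoxic library 0. Beside Zbtb16 and Sgk1, the phosphatase gene Dusp1 had 649.8, 1089 and 1009 CPM in hypoxia, against 361, 290.0 and 357 CPM in normoxia (1.45 ± 0.22, adjusted p = 0.000654). Hsd11b1, whose enzyme regenerates active glucocorticoid inside cells, had 556, 527 and 496 CPM, against 157, 246 and 268 CPM (2.35-fold higher, adjusted p = 0.000885), and the receptor gene Nr3c1 rose by 0.49 ± 0.12. The direct targets Fkbp5 (1.05 ± 0.44, adjusted p = 0.0952, but called with the tissue score or with only the groups compared) and Tsc22d3 (0.11 ± 0.27, adjusted p = 0.804) were not called.

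Genes for splicing factors and other RNA-binding proteins mostly moved downward where they were called: 19 of 44 fell and 1 rose (45.5%, against 21.9% of all tested genes). The falls numbered 11 without normoxic library 0 or without normoxic library 1. The SR proteins guide the choice of exons, and Srsf2 had 129, 124 and 112 CPM in hypoxia, against 245, 227 and 201 CPM in normoxia (-0.88 ± 0.12, adjusted p = 0.000321). Srsf3 (-0.76 ± 0.15), Srsf6 (-0.58 ± 0.10), Srsf7 (-0.53 ± 0.11) and Srsf11 (-0.47 ± 0.09) fell too. Hnrnph1, a splicing repressor, had 184, 177 and 186 CPM, against 298, 291 and 267 CPM, and its groups were narrow and well apart (-0.65 ± 0.09, adjusted p = 0.000449). The falls in this group were small, at most 1.84-fold among the 8 with the smallest p. Gene totals do not show which transcripts of these genes were made.

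Many genes of antigen-presenting cells and many chemokine genes fell. Of 34 dendritic cell and antigen presentation genes 2 rose and 18 fell, with 0 and 8 without normoxic library 0, 0 and 8 without hypoxic library 0, and 2 and 10 without hypoxic library 2. The chemokine gene Ccl22, made by mature dendritic cells, had 2.77, 3.1 and 3.18 CPM in hypoxia, against 19.1, 12.5 and 13.1 CPM in normoxia (-2.30 ± 0.28, adjusted p = 0.000155), and Ccl17, which binds the same receptor, had 2.38, 2.27 and 2.13 CPM, against 11.6, 8.02 and 11.4 CPM (-2.19 ± 0.38, adjusted p = 0.0015). The co-stimulatory gene Cd86 (-1.16 ± 0.23), the growth factor receptor gene Flt3 (2-fold lower) and the genes Xcr1 (-1.02 ± 0.24) and Itgae (-0.97 ± 0.22) of cross-presenting dendritic cells also fell. The abundant class II genes Cd74 (0.10 ± 0.22) and H2-Ab1 (-0.05 ± 0.20) were not called. Of 35 interstitial and pleural macrophage and monocyte genes 3 rose and 13 fell (45.7%, against 21.9% of all tested genes). The counts were 2 and 7 without hypoxic library 0 and 3 and 8 without hypoxic library 2 or normoxic library 2. The summed level of the 35 genes went the other way, at 4442 to 5037 CPM in hypoxia against 3197 to 3720.1 CPM in normoxia. There were falls in the lectin gene Mgl2 (-1.18 ± 0.16), the phosphatidylserine receptor gene Timd4 (-1.41 ± 0.27) and the complement gene C1qc (-0.93 ± 0.20).

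Of 29 chemokine genes 1 rose and 12 fell, and 0 and 8 without normoxic library 0. Cx3cl1, the membrane-bound fractalkine of endothelium, had 39.1, 44.7 and 48.7 CPM in hypoxia, against 77.7, 90.4 and 90 CPM in normoxia (-0.96 ± 0.12, adjusted p = 0.000207), and Cxcl16 fell by 0.56 and Ccl9 by 0.73 on the log2 scale. Interferon-stimulated genes counted 4 higher and 13 lower of 49, with 2 and 4 without normoxic library 0, 0 and 10 without hypoxic library 0, and 4 and 5 without hypoxic library 2; the antiviral gene Mx1 fell by 1.80 ± 0.36 and kept its call in every fit. Few lymphocyte genes were called. Of 37 T and NK cell genes 2 rose and 1 fell, and of 25 B and plasma cell genes 1 rose and 1 fell, both shares below the 21.9% of all genes, with 0 and 1 for the B cell list without hypoxic library 0 or normoxic library 0. Among 10 mast cell and eosinophil genes measured, 0 rose and 3 fell in each of the 6 fits: the mast cell protease gene Cpa3 (-1.24 ± 0.31), the IL-33 receptor gene Il1rl1 (-1.29 ± 0.21) and the histamine-making enzyme gene Hdc (-1.25 ± 0.18). Neutrophil genes counted 3 higher and 1 lower of 25. The granule gene Ngp was near the detection limit in normoxia, with 1.65, 0.706 and 1.57 CPM in hypoxia, against 0.0524, 0.0436 and 0.121 CPM in normoxia (4.03 ± 0.71, a fitted value that depends on the prior count, adjusted p = 0.00153).

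**Figure D4:**
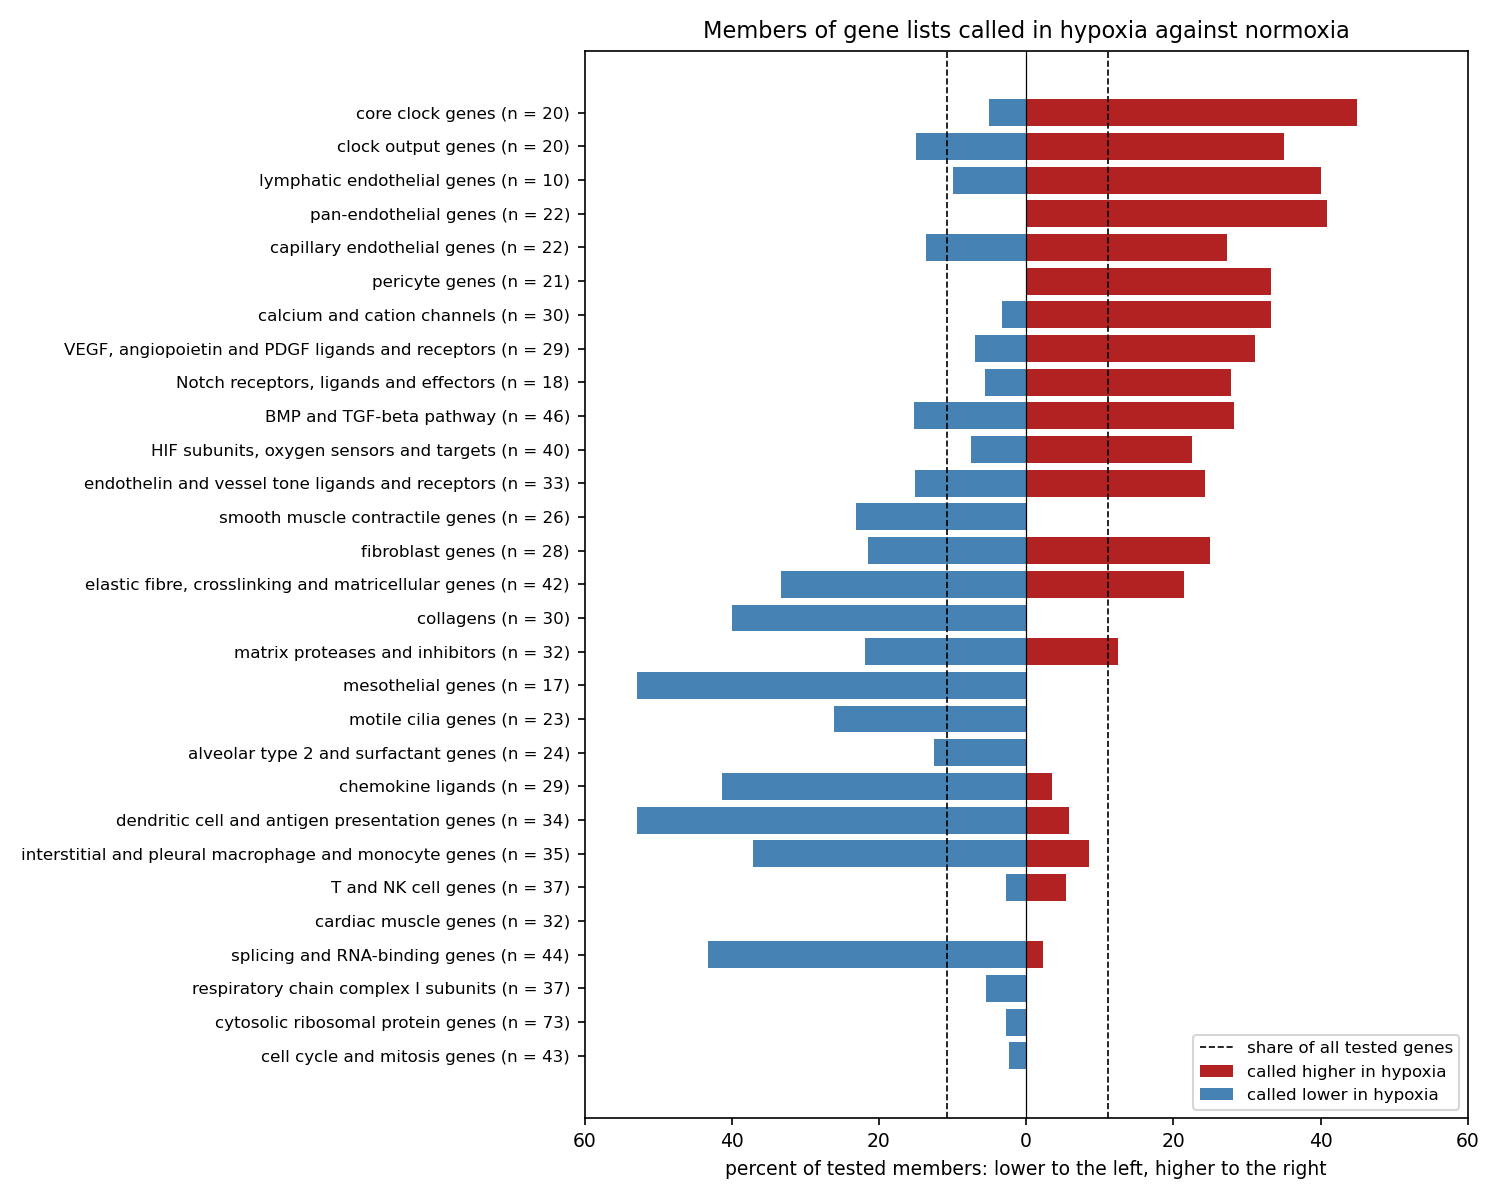
Percent of tested members of each gene list that were called higher (red, to the right) or lower (blue, to the left) in hypoxia, with dashed lines at 11.1% higher and 10.8% lower, the shares of all tested genes. Clock, endothelial and pericyte lists extend to the right, and collagen, mesothelial, dendritic cell and splicing lists to the left.

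Epithelial and mesothelial lists differed from each other. Of 17 mesothelial genes 0 rose and 9 fell, and 4 fell without hypoxic library 0; Wt1, a transcription factor of mesothelium, had 1.82, 2.35 and 2 CPM in hypoxia, against 7.39, 7.1 and 11.8 CPM in normoxia (-2.09 ± 0.34, adjusted p = 0.000885). The uroplakin gene Upk3b had 37.7, 65.5 and 59.4 CPM, against 174, 153 and 221 CPM (-1.75 ± 0.37, adjusted p = 0.00447), and the retinoic acid enzyme gene Aldh1a2 fell by 1.75 ± 0.31. The summed level of the 17 genes was 1429.8 to 1673 CPM in hypoxia, against 2162 to 2739 CPM in normoxia, so the groups did not overlap. Of 24 alveolar type 2 genes 0 rose and 3 fell, among them Nkx2-1, the lineage factor of lung epithelium (184, 221 and 211 CPM, against 269, 302 and 285 CPM, -0.47 ± 0.09, adjusted p = 0.00276), while the surfactant genes Sftpa1 (-0.10 ± 0.21) and Sftpb (-0.12 ± 0.15) were not called. Alveolar type 1 genes counted 2 higher and 2 lower of 22, with 2 and 0 without hypoxic library 0 or 2 and 2 and 5 without normoxic library 0. Ciliated cell genes fell in 6 of 23 cases, and in 1 without hypoxic library 0, 2 without hypoxic library 2 and 1 without normoxic library 0. The airway club cell list counted 3 higher and 4 lower of 28, a share of 25% beside the 21.9% of all tested genes, with 2 and 2 without hypoxic library 0 or 1 and 3 and 2 without hypoxic library 2 or normoxic library 0. Scgb3a2, a secretoglobin that marks club cells, had 1038, 897 and 952 CPM in hypoxia, against 2313, 1774 and 1380.1 CPM in normoxia, a fall (-0.92 ± 0.28, adjusted p = 0.0279) that stayed called without normoxic library 2 and was lost without each of the other 5 libraries (adjusted p up to 0.124). The resistin-like gene Retnla (-1.76 ± 0.40) and the uroplakin gene Upk3a (-3.97 ± 0.57) fell as well. Upk3a was near the detection limit in hypoxia, at 0.0426, 0.0769 and 0.0428 FPKM, so its fitted value depends on the prior count. Among the rises, the cytochrome P450 gene Cyp2b10 had 580.3, 513 and 553 CPM, against 239, 242 and 264 CPM, and the monooxygenase gene Fmo2 had 2108, 2062 and 1934 CPM, against 512, 687 and 829 CPM (adjusted p = 0.000331 and 0.00249).

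Calcium and cation channel genes counted 10 higher and 1 lower of 30 (36.7%, against 21.9% of all tested genes), and 5 and 0 without hypoxic library 0. Trpv4, a cation channel that opens with stretch and has been tied to hypoxic vasoconstriction in mice, had 35.6, 27.5 and 25.9 CPM in hypoxia, against 15.3, 12.6 and 12.3 CPM in normoxia (1.15 ± 0.17, adjusted p = 0.000489). The calcium-activated channel gene Trpm4 (0.71 ± 0.10), the calcium store receptors Itpr2 (0.96 ± 0.16) and Itpr3 (0.59 ± 0.10) and the store sensor Stim1 (0.69 ± 0.16) rose. Potassium channel genes counted 3 higher and 5 lower of 38, a share of 21.1% that lies near the 21.9% of all tested genes. The counts were 2 and 2, 3 and 3 and 3 and 2 without hypoxic library 0, 1 and 2 in turn. They were 5 and 3 without normoxic library 0 and 2 and 3 without normoxic library 1. Kcnk3, loss of which causes pulmonary arterial hypertension in humans, rose by 0.57 ± 0.13 and Kcnn3 by 1.35 ± 0.30, while Kcnk2 fell by 0.66 ± 0.09 and the channel-interacting protein gene Kcnip4 by 1.00 ± 0.25, a call lost without hypoxic library 2. Of 20 serotonin and adrenergic genes 3 rose and 4 fell (35%). The serotonin transporter gene Slc6a4 (0.81 ± 0.18) was higher in hypoxia and the receptor gene Htr2b (-1.30 ± 0.31) lower. Both have been studied as drivers of pulmonary hypertension in mice.

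Several general programmes, those of cell division, respiration and ribosomes, showed few calls. Cell cycle and mitosis genes counted 0 higher and 1 lower of 43 (the exception being E2f1, at -0.55 ± 0.17 and lost without hypoxic libraries 0 and 1 or normoxic libraries 1 and 2), with a median of -0.20. Of 37 complex I subunit genes 0 rose and 2 fell, although 36 lay below 0 with a median log2 difference of -0.38, and of 38 subunit genes of complexes II to V 0 rose and 2 fell, with a median of -0.40. Over the 6 fits with 1 library left out, 0 to 3 subunits of complex I and 0 to 2 of the other complexes were lower, with 0 in both without hypoxic library 0 or normoxic library 0. Both medians moved towards 0 without normoxic library 0, to -0.19 and -0.17. The summed level of the complex I genes was 2197 to 2329 CPM in hypoxia and 2503 to 3639 CPM in normoxia. Of 73 ribosomal protein genes 0 rose and 2 fell, and 1 fell without hypoxic library 0, 1 or 2 or normoxic library 0. Cholesterol and fatty acid synthesis genes counted 8 higher and 2 lower of 35 (28.6%), with 5 and 5 without normoxic library 0 and 5 and 1 without hypoxic library 2. They included Lss, lanosterol synthase (0.93 ± 0.18), among the rises and Me1, malic enzyme (-0.72 ± 0.10), among the falls. Of 34 genes of glutathione metabolism and the NRF2 response, 6 rose and 8 fell, a share of 41.2% and so above the 21.9% of all tested genes, with 3 and 4, 3 and 5 and 2 and 3 without hypoxic library 0, 1 and 2 in turn, and 3 and 2 without normoxic library 0. The transferase gene Gsta3 rose 2.2-fold and the secreted peroxidase gene Gpx3 1.93-fold.

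Called genes were spread over all chromosomes, from 17.6% of tested genes on chromosome 13 to 25.4% on chromosome 5. Of 442 windows of 5 Mb with at least 10 tested genes, the median share of called genes was 21.7%. The highest share was 14 of 23 genes (60.9%) on chromosome 3 between 145 and 150 Mb, 6 higher and 8 lower, and the next was 7 of 15 (46.7%) in the adjoining window from 140 to 145 Mb. Among the 14, 3 genes that kept their call without each library in turn were the chloride channel regulator gene Clca5 (0.607, 1.06 and 0.566 CPM in hypoxia, against 0.105, 0.218 and 0.161 CPM in normoxia), the small nucleolar ribonucleoprotein assembly gene Znhit6 (10.6, 10.8 and 11.2 CPM, against 19, 16.1 and 17.3 CPM) and Spata1 (1.21, 1.02 and 1.35 CPM, against 2.36, 2.14 and 2.02 CPM). Clca5 was near the detection limit in normoxia. It is one of a cluster of similar genes, so reads of its relatives may have been assigned to it.

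The response was then compared with that of wild type lung by a test of the difference between responses. Of 15388 genes, 931 (6.05%) differed, 537 with a higher and 394 with a lower log2 change in the line labelled β-arrestin 2 -/-. Against β-arrestin 1 -/- lung 367 genes (2.38%) differed, 202 and 165. Both comparisons share the hypoxic and normoxic libraries described above. The first count was 350, 534 and 435 without hypoxic library 0, 1 and 2 of the labelled line in turn, 413 and 342 without its normoxic library 0 and 1, 2022, 426 and 331 without wild type hypoxic library 0, 1 and 2, and 507 and 313 without wild type normoxic library 0 and 1. The second was 70, 117 and 92 without hypoxic library 0, 1 and 2 of the labelled line, 156 and 82 without its normoxic library 0 and 1, 2114 and 695 without β-arrestin 1 -/- hypoxic library 0 and 1, and 122, 20 and 67 without β-arrestin 1 -/- normoxic library 0, 1 and 2. With the tissue score of heart muscle, club cell and adipocyte genes as a covariate, the first count was 131. This score was 0.73 to 1.25 in hypoxic and -0.57 to 1.78 in normoxic libraries of the labelled line, and 0.41 to 0.75 in hypoxic and -2.12 to -0.97 in normoxic wild type libraries.

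Lyve1 fell less than in the other lines: its log2 change was -0.81 ± 0.16 here, -2.78 ± 0.17 in wild type and -2.95 ± 0.18 in β-arrestin 1 -/- lung. The differences were 1.97 (adjusted p = 0.00218) and 2.14 (adjusted p = 0.000971). Spon2 fell more, by 4.77 here, against -1.06 ± 0.34 in wild type and -0.53 ± 0.33 in β-arrestin 1 -/- lung, with differences of -3.71 (adjusted p = 0.00403) and -4.24 (adjusted p = 0.0015). Matrix genes accounted for other clear cases. Eln changed by -1.70 ± 0.25 here, against 0.21 ± 0.24 in wild type and 0.65 ± 0.24 in β-arrestin 1 -/- lung, and Loxl1 by -1.43 ± 0.16, against 0.17 ± 0.15 and 0.10 ± 0.15 in the same 2 lines. The differences of Eln were -1.92 (adjusted p = 0.00766) and -2.36 (adjusted p = 0.00578), and those of Loxl1 -1.60 (adjusted p = 0.00403) and -1.53 (adjusted p = 0.00578).

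Other genes changed here and were near 0 or of opposite sign in the other lines. Gyg, the self-glucosylating primer of glycogen, fell here by 0.83 ± 0.10, against changes of 0.37 ± 0.10 in wild type and 0.41 ± 0.10 in β-arrestin 1 -/- lung. Its differences were -1.20 (adjusted p = 0.00218) and -1.25 (adjusted p = 0.000971). Gja5 changed by -1.08 here, against 0.19 ± 0.15 and 0.30 ± 0.15 in wild type and β-arrestin 1 -/- lung (differences -1.27 and -1.37, adjusted p = 0.00603 and 0.00733). Xdh, xanthine dehydrogenase, rose here by 1.60 ± 0.23, against -0.56 ± 0.22 and -0.32 ± 0.22 (differences 2.16 and 1.92, adjusted p = 0.0044 and 0.0119). Lrrc32, which encodes the latent TGF-β docking protein GARP, rose here by 1.29 ± 0.13, against 0.07 ± 0.13 and 0.02 ± 0.13 (differences 1.22 and 1.27, adjusted p = 0.0044 and 0.00578). These 8 genes (Lyve1, Spon2, Eln, Loxl1, Gyg, Gja5, Xdh and Lrrc32) passed the test of both differences and kept both calls in all 22 alternatives. In 12 of these alternatives a library of the groups compared was left out. Over all tested genes, 158 were higher and 98 lower in both differences in the main fit. How many of them keep both calls in every alternative is not given here, so this stability describes the 8 genes alone.

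Of 42 elastic, crosslinking and matricellular genes 8 had a lower change than in wild type and 0 a higher one. Without normoxic library 1 of the labelled line, wild type hypoxic library 2 or wild type normoxic library 1 the count was 5 and 0, and without wild type hypoxic library 0 it was 12 and 1. Of 20 core clock genes edgeR called 0 as different from wild type, 10 had an unadjusted p under 0.05 and DESeq2 called 2. Without wild type hypoxic library 2 edgeR called 3, and without normoxic library 2 of the labelled line 1, all higher here. The median log2 change of that list was 0.52 here, 0.10 in wild type and 0.12 in β-arrestin 1 -/- lung.

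**Figure D5:**
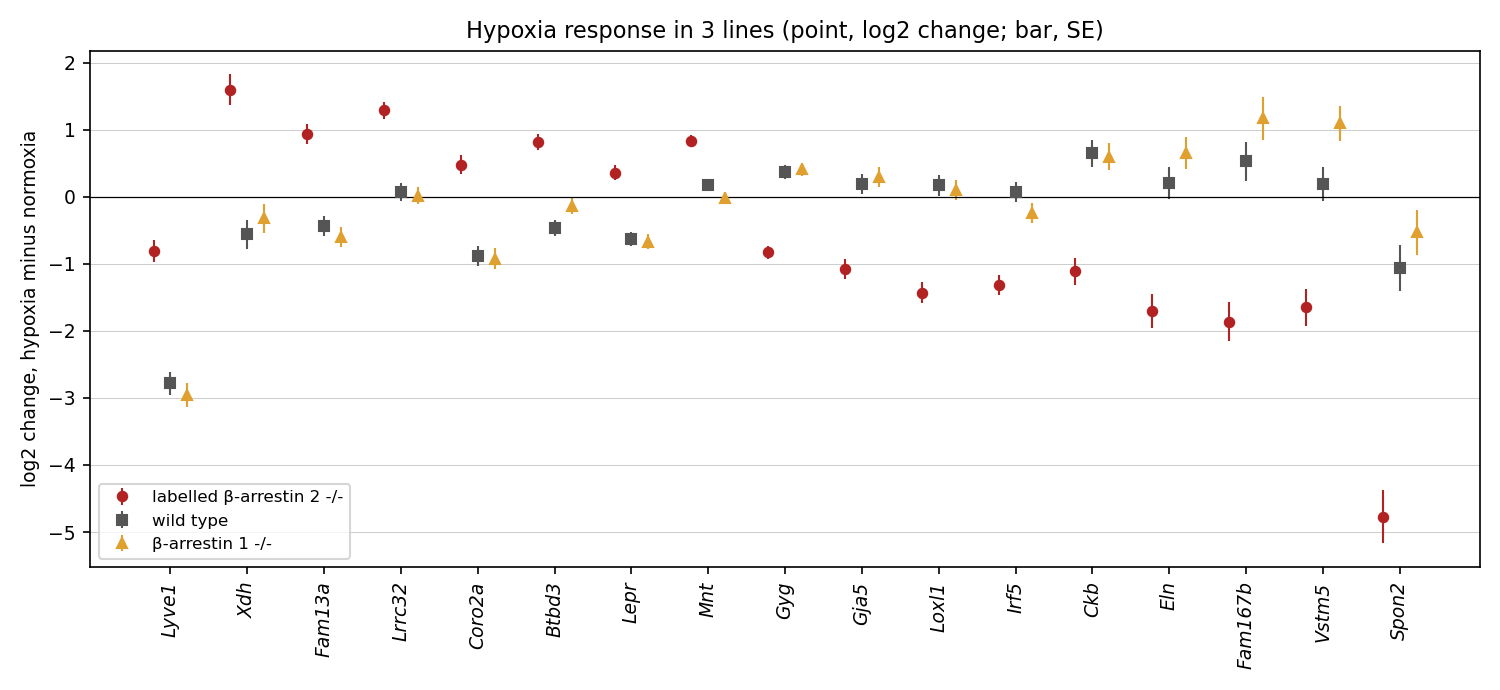
Log2 change in hypoxia against normoxia (point, with its SE as a bar) in the line labelled β-arrestin 2 -/- (red circles), wild type (grey squares) and β-arrestin 1 -/- lung (yellow triangles), for 17 genes among those with the smallest p in a test of the difference between responses. Lyve1 falls least in the line labelled β-arrestin 2 -/-, Spon2, Eln and Loxl1 are lowest there, and Xdh and Lrrc32 rise.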

How the data were processed

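Total RNA from frozen whole lung was made into poly(A)-selected libraries with a kit that keeps no strand, per the labels' protocols. FastQC, TopHat and Cuffdiff on mm10 are named in the submitters' processing notes, with no version or annotation stated. For every gene the authors deposited an estimated count for each library and an FPKM value scaled across libraries. They also deposited a table of their own comparisons with p-values, q-values and a test score, of which only the q-values and the direction of the score entered. Of the 23356 features, 93.3% of the deposited estimated counts were whole numbers; they were rounded, and 5 features that Cuffdiff marked as too deep to quantify were left out. A set of 25 gene symbols had been turned into dates and stayed under the name deposited.

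All 18 libraries entered 1 edgeR 4.0.16 quasi-likelihood fit (R 4.3.3, TMM scaling, filterByExpr, 6 groups without an intercept), and p-values were adjusted by the Benjamini-Hochberg method over all genes tested, with calls at 0.05. Log2 differences used a prior count of 2, and CPM values use TMM-scaled library sizes. SE values were taken as the size of the log2 difference over the square root of its F statistic. Differences between responses were tested as contrasts of the same fit. On simulated counts for the hypoxia comparison (15264 genes), recovery was 25.4%, 64.2% and 89.4% for a 1.5-fold, 2-fold and 4-fold change. In those counts, 4.03% of calls were false. A far smaller share of genes was changed in those counts than the 21.9% called in the measured libraries. Whether the rates of recovery and of false calls hold for the measured libraries was not tested. Alternatives were DESeq2 1.42.0, its size factors, no filter, a block for the replicate number, only the groups compared, removal of haemoglobin genes, limma 3.58.1 on log2(FPKM + 1) or log2(FPKM + 0.1) with FPKM of at least 1 in 3 libraries or no minimum, a tissue score (mean log2 CPM of cardiac muscle, club cell and adipocyte genes) as a covariate, and leaving out each library.

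Members and the 59 gene lists were chosen with earlier results of these data known. Genes were named by rule: the 15 highest and 15 lowest log2 differences (called, mean log2 CPM 1 or more, groups not overlapping), the 15 smallest p in each direction, up to 8 called and 3 uncalled members of each list (any member of a list of 40 or fewer), the 10 smallest p of each difference between responses, and called genes of the 3 windows with the highest share.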

Additional observations from a re-analysis of the deposited data

Results flagged for a closer look

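Responses that differed between lines by a test of the difference itself were found for 931 genes against wild type and 367 against β-arrestin 1 -/- lung. Among the genes given with values above, the log2 response of the line labelled β-arrestin 2 -/- was higher than that of wild type and of β-arrestin 1 -/- lung for Lyve1 (by 1.97 and 2.14), Xdh (by 2.16 and 1.92) and Lrrc32 (by 1.22 and 1.27). It was lower for Spon2 (differences of -3.71 and -4.24), Eln (-1.92 and -2.36), Loxl1 (-1.60 and -1.53), Gyg (-1.20 and -1.25) and Gja5 (-1.27 and -1.37), each pair against wild type and then β-arrestin 1 -/- lung. With 3 libraries in a group, no test for a single outlying library was applied.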

How the results depend on the processing

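Over the fits that left out 1 library, the genes called in hypoxia numbered 1710 to 3107, of which 941 to 1696 were higher and 769 to 1411 lower. All other alternatives kept this count within 1.5 times of 3370, from 3071 with no filter to 4255 with only the groups compared, and DESeq2 called 4116. The difference from wild type counted 313 to 2022 genes with 1 library left out, 1880 with DESeq2, 1540 with only the groups compared and 131 with the tissue score as a covariate. The difference from β-arrestin 1 -/- lung counted 20 to 2114 genes with 1 library left out, 1604 with DESeq2 and 244 with only the groups compared. Apart from the settings built on fewer libraries, the cause was not tested. The log2 difference of Arrb1 was 0.33 and not called, and it passed with DESeq2 (0.35), DESeq2 size factors (0.35), only the groups compared (0.37), limma on log2(FPKM + 1) (0.34), the tissue score (0.37) and without normoxic library 2, the highest of 0.27 to 0.42 over the fits with 1 library left out. Of 161 called genes named with a value, 152 kept direction and call in every setting, and 0 reversed. Apart from stated exceptions, genes were given with values from the core that kept its call with each library left out. That share was thus largely fixed by the choice of genes. Over all tested genes, 1334 of the 3370 called kept their call in those fits. Deviations from the group means correlated by 0.131, 0.0307 and 0.0712 between hypoxic and normoxic libraries of replicate number 0, 1 and 2. Hypoxic libraries 0 and 2 correlated best with the normoxic library of their own number. Hypoxic library 1 correlated better with normoxic library 2 (0.0676). Whether the replicate numbers pair the libraries was not tested. With the replicate number as a block, 3315 genes were called (1663 higher, 1652 lower), 820 differed from wild type and 352 from β-arrestin 1 -/- lung. At this depth and with 3 libraries a group, a missed call does not show equal levels.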

Other observations

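Of 21 Schwann cell and neuronal genes 4 rose and 0 fell in hypoxic lung, a share of 19%, below the 21.9% of all tested genes. The rises included Cntn1, an axonal adhesion protein, with 16.7, 9.92 and 11.8 CPM in hypoxia, against 1.36, 2.31 and 1.82 CPM in normoxia (2.80 ± 0.45, edgeR adjusted p = 0.000791), and Snph, a mitochondrial docking protein of axons, with 5.85, 5.69 and 5.01 CPM, against 0.682, 0.828 and 1.05 CPM (2.67 ± 0.30, edgeR adjusted p = 9.04e-05). Of 15 neurotrophin genes, the ligand Gdnf rose (0.90 ± 0.18) beside Ntrk2, and the receptor Gfra2 fell (-0.96 ± 0.15). All of these called genes kept their call without each library in turn. Steap4, a metalloreductase of the iron gene list, fell (-0.83 ± 0.19). Of 32 cytosolic heat shock genes 2 rose and 0 fell, and none was called without hypoxic library 0, normoxic library 0 or normoxic library 1.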
